A study of Mus musculus with 6 samples.

Results

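The 46 genes described here encode respiratory complexes II to V of the inner mitochondrial membrane, taken from the 24422 genes counted in whole mouse kidney. Every symbol was included that is Sdha, Sdhb, Sdhc, Sdhd, Cox4i1, Cox5a or Cox5b, or that starts with Uqcr, Cox6, Cox7, Cox8 or Atp5. They fall into 4 genes of complex II (succinate dehydrogenase), 8 of complex III (ubiquinol-cytochrome c reductase), 17 of complex IV (cytochrome c oxidase) and 17 of complex V (ATP synthase), so that 29 belong to complexes II to IV. The study deleted the transferrin receptor gene Tfrc (TfR1), the main route of iron into most cells, and the question addressed here is whether RNAs of the iron-containing complexes differed from those of ATP synthase.

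Poly-A RNA was sequenced from 6 kidneys of C57BL/6 mice at postnatal day 13, all on an iron sufficient diet with 220 ppm iron. The 3 Control kidneys carry the genotype label wild type, and the 3 TfR1KO;Six2Cre kidneys the label Tfr1f/f;SixCre, a floxed Tfrc allele deleted by a Cre that the Six2 promoter drives in nephron progenitors. That Cre is not active in collecting duct or stroma, the study describes TfR1+ tubule cells that escaped deletion, and whole kidneys contain all of these cells. The series design calls the 3 kidneys of each genotype biological replicates. Because bulk tissue was measured, fewer cells of a type and less RNA per cell cannot be told apart in any value below.

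As background, complexes II to IV pass electrons from succinate and ubiquinol to oxygen through iron-sulfur clusters and hemes, and complex IV also uses copper. ATP synthase holds no iron. It is a rotary enzyme whose membrane ring is turned by returning protons, whose F1 head makes ATP, and whose peripheral stalk keeps the head from turning with the ring. Kidney tubules, above all the proximal tubule and the thick ascending limb, depend on this machinery to pay for sodium transport. Of the genes listed here, only Sdhb and Uqcrfs1 (iron-sulfur proteins) and Sdhc and Sdhd (which together bind a heme) encode proteins that hold iron themselves. The heme and copper subunits of complex IV and cytochrome b of complex III come from mitochondrial DNA. Cytochrome c1 of complex III, which also bears heme, is encoded by Cyc1, whose symbol is not among those included. The 6 mitochondrial-DNA genes of complexes III to V were not found in the counts under the symbols searched, so they could not be analysed here.

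The libraries held between 16591156 and 22898008 counts, of which the 46 genes took 1.64% to 2.11%. Control 3 stood apart: for 11 of the 44 members tested it was the lowest of all 6 libraries, among them Sdha, Sdhc, Uqcrc1, Uqcrfs1, Atp5a1 and Atp5b, and for 11 others it was the highest. TfR1KO 3 was the lowest library for 30 of the 44 members, and TfR1KO 2 the highest for 15. In TfR1KO 2 the 10 most abundant genes held 7.03% of all counts, against 3.85% to 5.32% in the other libraries. Tfrc itself did not fall in whole kidney (log2 fold change 0.11, SE 0.29, DESeq2 adjusted p = 0.853, range over libraries 3667 to 6976 normalized counts). The whole-gene count includes reads outside the floxed exons.

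Promoters are shown for 4 members, all lower on average in TfR1KO;Six2Cre kidneys. They are a pair of complex IV isoforms of muscle and fat and a pair of ATP synthase subunits. Of the 4, Atp5h did not pass an adjusted p under 0.05 by DESeq2. Cox6a2, the member that fell furthest, had no promoter entry. Each line gives the 250 bases before the RefSeq transcription start on the gene's strand, from build GRCm38.p6, which differs from the mm9 build of the counts. The Cox7a1 stretch is chr7:30183921-30184170 (+), Cox8b is chr7:140900447-140900696 (-), Atp5k is chr5:108434400-108434649 (-) and Atp5h is chr11:115419920-115420169 (-). Capitals mark matches on either strand to the NRF1 motif (GCGCA, any base, then GCGC), which begins 50 bases before the start in Atp5k and 141 bases before it in Atp5h, or to the ETS motif CCGGAAG bound by GABPA, found in Atp5h 38 bases before the start on the opposite strand.
Cox7a1: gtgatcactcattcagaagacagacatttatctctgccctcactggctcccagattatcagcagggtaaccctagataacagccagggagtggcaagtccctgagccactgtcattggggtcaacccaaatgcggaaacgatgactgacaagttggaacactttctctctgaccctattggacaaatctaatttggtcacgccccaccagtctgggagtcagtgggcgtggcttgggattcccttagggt
Cox8b: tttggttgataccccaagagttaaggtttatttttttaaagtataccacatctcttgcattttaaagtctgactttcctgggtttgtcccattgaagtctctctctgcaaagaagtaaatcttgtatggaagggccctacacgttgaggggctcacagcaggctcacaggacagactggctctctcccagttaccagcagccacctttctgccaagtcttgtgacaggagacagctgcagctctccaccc
Atp5k: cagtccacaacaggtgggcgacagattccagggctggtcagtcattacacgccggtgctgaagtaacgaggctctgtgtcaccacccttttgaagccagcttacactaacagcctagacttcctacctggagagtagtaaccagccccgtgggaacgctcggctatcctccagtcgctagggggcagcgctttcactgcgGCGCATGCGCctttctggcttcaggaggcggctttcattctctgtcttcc
Atp5h: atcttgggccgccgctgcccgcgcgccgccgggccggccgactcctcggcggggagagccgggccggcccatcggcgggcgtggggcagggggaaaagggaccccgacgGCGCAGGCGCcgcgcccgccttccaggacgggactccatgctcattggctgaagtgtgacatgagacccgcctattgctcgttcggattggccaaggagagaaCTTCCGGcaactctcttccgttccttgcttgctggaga

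Both factors are known activators of nuclear genes for respiratory proteins. A promoter entry existed for 37 of the 46 members. The NRF1 letters were found in 7 of these (18.9%: Sdha, Sdhd, Cox6a1, Atp5c1, Atp5g2, Atp5h and Atp5k) and in 4.23% of 27025 genes. The ETS letters were found in 9 members (24.3%), 5 of them in complexes II to IV and 4 in ATP synthase, and in 7.83% of all genes. The estrogen-related receptor motif TCAAGGTCA was present in Atp5g3 alone among the members and in 0.422% of all genes, and the YY1 motif AAGATGGCG in Atp5j and Atp5sl (5.41% of members, 0.71% of all genes). In Atp5h the NRF1 and ETS matches do not overlap. A match describes the letters in this window only.

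Few of the members differed between the genotypes. Of 44 members tested, 4 were lower in TfR1KO;Six2Cre kidneys at a DESeq2 adjusted p under 0.05 (9.09%, where 7.18% of all 16509 genes tested were called lower, a similar share): the complex IV isoforms Cox6a2, Cox7a1 and Cox8b, and the ATP synthase subunit Atp5k. A single member, the complex IV isoform Cox6b2, was called higher, where 7.74% of all genes were. With a 2-fold change required as well, Cox6a2 remained as the only member called lower (4.46% of all genes) and none was called higher (4.41% of all genes). By edgeR's quasi-likelihood test, Cox6a2 alone was called lower (2.8% of all genes) and none higher (3.22%). At an unadjusted p under 0.05, 8 members were lower and 1 higher by DESeq2 (13.5% and 13.8% of all genes) and the counts by edgeR were also 8 and 1 (13% and 12.8% of all genes). Of the 8 lower ones, 5 belong to ATP synthase.

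The fold changes leaned low without being large. In 33 of 44 members the log2 fold change was below 0 (49.3% of all genes tested), with a median of -0.18 against 0.01 over all genes, whose middle 50% ran from -0.36 to 0.33. The mean log2(normalized count + 1) of the 44 members was 12.27, 12.42 and 12.17 in Control and 12.07, 12.31 and 11.91 in TfR1KO;Six2Cre kidneys. On this mean level the groups overlapped. In 7 members every TfR1KO;Six2Cre library lay below every Control library (16.9% of all genes), namely Cox6a2, Cox7a1, Atp5k, Atp5h, Atp5o, Atp5j and Atp5e, and in 1 member, Cox6b2, every one lay above (16.9% of all genes). The 39 members not past the threshold had log2 fold changes from -0.47 to 0.35 with standard errors of 0.14 to 0.28, so a shift of the size of their error could not be told from none. The 2 members not tested were Cox7b2, with no read in any library, and Cox8c, a testis isoform with 1 read in Control 3.

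**Figure D1:**
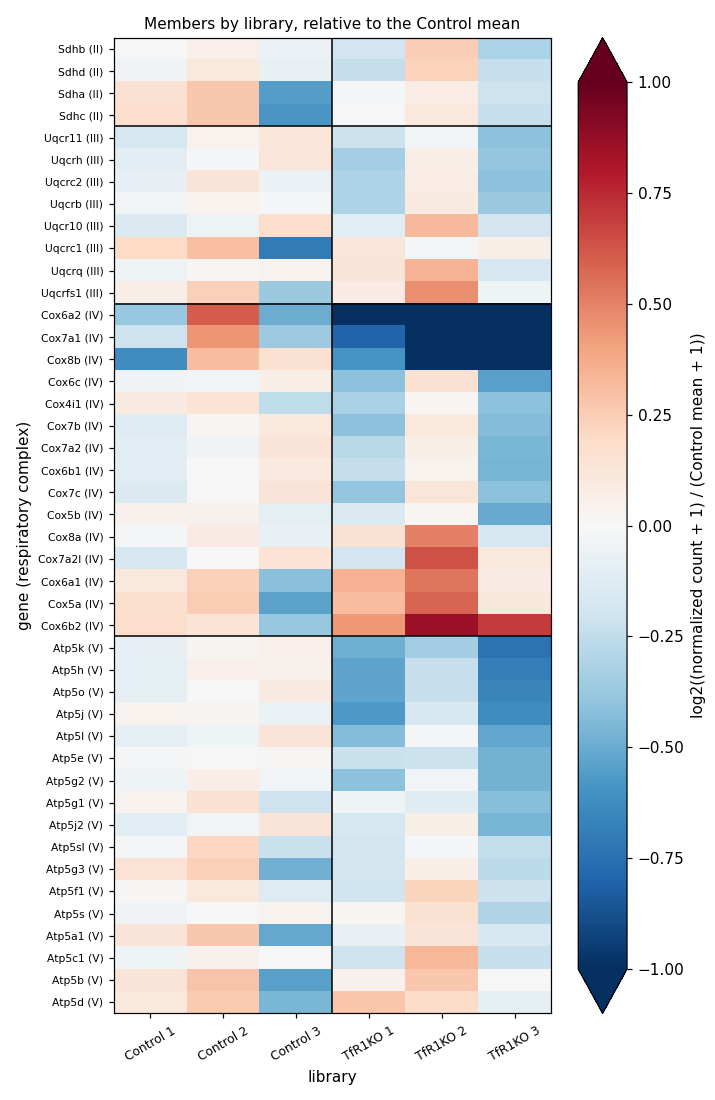
Colour shows log2 of each library's normalized count plus 1 over the Control mean plus 1 for the 44 members tested, in rows by complex and ordered by fold change within it, with 3 Control libraries left and 3 TfR1KO;Six2Cre libraries right of the line. Cox6a2, Cox7a1 and Cox8b are the darkest blue (the colour scale ends at -1 and 1), Control 3 is blue for the 11 members in which it is the lowest library, and TfR1KO 3 is the lowest library for 30 of the 44 genes.

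Complex II, which feeds electrons from succinate to ubiquinone, showed no called change. Its catalytic flavoprotein Sdha measured 14516, 15814 and 8958 normalized counts in the Control kidneys and 12961, 13761 and 11342 in the TfR1KO;Six2Cre kidneys, so the TfR1KO;Six2Cre values lay inside the Control range (log2 fold change -0.05, SE 0.25, DESeq2 adjusted p = 0.932). The iron-sulfur subunit Sdhb measured 6930, 7175 and 6624 in Control and 6062, 8188 and 5563 in TfR1KO;Six2Cre kidneys (log2 fold change -0.07, SE 0.20, adjusted p = 0.87). In this gene the spread was wider among TfR1KO;Six2Cre libraries, with TfR1KO 2 the highest of all 6 and the other two the lowest.

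The membrane anchors of complex II were not called either. Sdhc, one of the heme-binding pair, measured 5708, 6118 and 3379 normalized counts in Control and 5066, 5440 and 4311 in TfR1KO;Six2Cre kidneys (log2 fold change -0.04, SE 0.26, DESeq2 adjusted p = 0.949). Sdhd, its partner, measured 7088, 7815 and 6889 against 6151, 8536 and 6175 (log2 fold change -0.06, SE 0.20, adjusted p = 0.872). The groups overlapped in both genes, and all 4 complex II genes together spanned -0.07 to -0.04 on the log2 scale. The 95% intervals of their log2 fold changes were not narrow, reaching for example from -0.46 to 0.32 for Sdhb and from -0.55 to 0.48 for Sdhc.

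Complex III, which passes electrons on to cytochrome c, was divided, with 4 genes above 0 and 4 below and none called. Neither complex II nor complex III held a gene with an unadjusted p under 0.05 by DESeq2 or edgeR (0 of 4 and 0 of 8). Uqcrfs1, the Rieske iron-sulfur protein, measured 6335, 7130 and 4675 normalized counts in Control and 6386, 8324 and 5855 in TfR1KO;Six2Cre kidneys (log2 fold change 0.18, SE 0.24, DESeq2 adjusted p = 0.67, 95% interval -0.28 to 0.64). Its lowest value was Control 3 and its highest TfR1KO 2. The core proteins parted in sign, Uqcrc1 at 0.06 and Uqcrc2 at -0.20, both with overlapping groups. Uqcrc1 turned to -0.20 when Control 3 was left out and to -0.03 under total-count scaling. The small subunits ran from -0.21 (Uqcr11 and Uqcrh, the hinge protein) and -0.18 (Uqcrb) to 0.03 (Uqcr10) and 0.11 (Uqcrq), the last pair falling below 0 under total-count scaling. The iron-holding subunits Sdhb, Sdhc, Sdhd and Uqcrfs1 thus had a median log2 fold change of -0.05, with a range of -0.07 to 0.18 and none called.

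Complex IV, which hands the electrons to oxygen, held most of the members called by DESeq2. Of its 15 genes tested, 3 were called lower (20%, against 7.18% of all genes) and 1 higher (7.74% of all genes). By edgeR 1 was called lower (2.8% of all genes) and 0 higher (3.22%). The 4 complex IV genes called by DESeq2 are isoforms that other tissues are known to favour over kidney: Cox6a2 and Cox8b in striated muscle (Cox8b also in brown fat), Cox7a1 in muscle and brown fat, and Cox6b2 in testis. All 4 lie on chromosome 7, far apart. In Control kidneys they were among the 7 tested members with the lowest levels per length: Cox6a2 had 83.8 normalized counts per kb of exon, Cox6b2 1023, Cox7a1 1186 and Cox8b 1324, against 21041 for Cox4i1, the member with the highest level per kb. The other members with such low levels were Atp5s (182), Atp5sl (409) and Atp5g1 (1285).

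Cox6a2 (mm9, chr7:135348950-135349880, - strand) fell furthest of all members. Its normalized counts were 42.1, 84.5 and 38.8 in the Control kidneys and 7.96, 5.12 and 4.73 in the TfR1KO;Six2Cre kidneys, from raw counts of 36 to 93 and of 4 to 8. Every Control library was thus several times above every TfR1KO;Six2Cre library, with means of 55.1 ± 25.5 and 5.93 ± 1.76 (SD, n = 3 each). The log2 fold change was -3.21 (SE 0.61, DESeq2 adjusted p = 7.25e-06, edgeR adjusted p = 0.0149), and it was called under all 12 alternatives run. Of its 658 exon bases, 66 overlap Itgad on the opposite strand.

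Cox7a1 (mm9, chr7:30969190-30971047, + strand) measured 374, 585 and 336 normalized counts in Control and 248, 206 and 200 in TfR1KO;Six2Cre kidneys. All 3 TfR1KO;Six2Cre libraries lay below the lowest Control, and the means were 432 ± 134 and 218 ± 26.1 (SD, n = 3 each). The log2 fold change was -0.99 (SE 0.28, DESeq2 adjusted p = 0.00581, edgeR adjusted p = 0.0586). The call was lost without Control 2, the highest library (log2 fold change -0.71, adjusted p = 0.0785), and without TfR1KO 3 (adjusted p = 0.0673).

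Cox8b (mm9, chr7:148084842-148086345, - strand) measured 311, 594 and 534 normalized counts in Control and 317, 215 and 218 in TfR1KO;Six2Cre kidneys. Here the groups overlapped, since Control 1 lay just below TfR1KO 1. The log2 fold change was -0.94 (SE 0.32, DESeq2 adjusted p = 0.0256, edgeR adjusted p = 0.0965). Without Control 2, Control 3, TfR1KO 2 or TfR1KO 3 the adjusted p was 0.21, 0.101, 0.112 and 0.154, respectively.

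Cox6b2 (mm9, chr7:4703396-4704696, - strand) was the exception in direction. It measured 637, 620 and 434 normalized counts in Control and 760, 1029 and 915 in TfR1KO;Six2Cre kidneys, with every TfR1KO;Six2Cre library above every Control library. The log2 fold change was 0.68 (SE 0.23, DESeq2 adjusted p = 0.0305, edgeR adjusted p = 0.0894). The call was kept only without TfR1KO 1 among the 6 fits that leave out a library. The adjusted p in the other 5 ran from 0.0798 without Control 1 to 0.147 without TfR1KO 3, and was 0.0946 without Control 2, 0.086 without Control 3 and 0.142 without TfR1KO 2.

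The widely expressed partner of each isoform was not called. Cox6a1 measured 8676, 9484 and 6024 normalized counts in Control and 10249, 11690 and 8535 in TfR1KO;Six2Cre kidneys (log2 fold change 0.33, SE 0.24, DESeq2 adjusted p = 0.371). Cox6b1 measured 8497, 9142 and 9777 against 7763, 9340 and 6604 (log2 fold change -0.21, SE 0.19, adjusted p = 0.498). The groups overlapped in both. Cox7a2 measured 5068, 5315 and 5981 against 4499, 5681 and 3969 (log2 fold change -0.21, SE 0.20, adjusted p = 0.519), and Cox8a 9371, 9978 and 8945 against 10506, 13349 and 8363 (log2 fold change 0.19, SE 0.21, adjusted p = 0.615). In these too the groups overlapped, with TfR1KO 3 at or near the bottom and TfR1KO 2 at or near the top.

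Set against its partner, each tissue isoform was the minor one in kidney. Cox6a2 made up 0.668% of the Cox6a1 and Cox6a2 counts on average in Control and 0.0589% in TfR1KO;Six2Cre kidneys. Cox7a1 made up 7.37% of its pair in Control (5.32% to 9.92%) and 4.50% in TfR1KO;Six2Cre kidneys (3.50% to 5.22%), and the groups did not overlap. The share of Cox8b was 4.82% and 2.35%, again without overlap of the libraries (3.21% to 5.63% against 1.58% to 2.93%). Cox6b2 went the other way, from 5.86% (4.25% to 6.98%) to 10.3% (8.92% to 12.2%). These are shares of reads, not corrected for the lengths of the genes.

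Ucp1, a brown fat marker, was lower along with Cox7a1, Cox8b and Cox6a2, while Cidea and Elovl3 were not called. Ucp1, the uncoupling protein that defines brown fat, measured 1609, 3244 and 4178 normalized counts in Control and 716, 422 and 945 in TfR1KO;Six2Cre kidneys (log2 fold change -2.12, SE 0.40, DESeq2 adjusted p = 5.83e-06, edgeR adjusted p = 0.0302). Cidea, a lipid droplet protein, measured 668, 1113 and 825 against 793, 440 and 359 (adjusted p = 0.161). Elovl3, a fatty acid elongase, ranged from 0 to 4.54 in Control and from 5.12 to 19.9 in TfR1KO;Six2Cre kidneys (adjusted p = 0.178). Of these 3 markers 1 was called lower. Their sum, most of it Ucp1 in Control, ran from 2276 to 5005 in Control and from 867 to 1528 in TfR1KO;Six2Cre kidneys. Cox8b, the fourth gene of the marker list, is itself a member and is not counted here. Their part in the result was not tested. Of 6 markers of skeletal and cardiac muscle, 0 of the 4 tested were called by DESeq2 or edgeR (1 of 4 at an unadjusted p under 0.05 by DESeq2 and 1 by edgeR), their sum was 43.6 to 110 in Control and 68.6 to 138 in TfR1KO;Six2Cre kidneys, and Ckm, muscle creatine kinase, was at 0 in Control 2, TfR1KO 1 and TfR1KO 2.

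**Figure D2:**
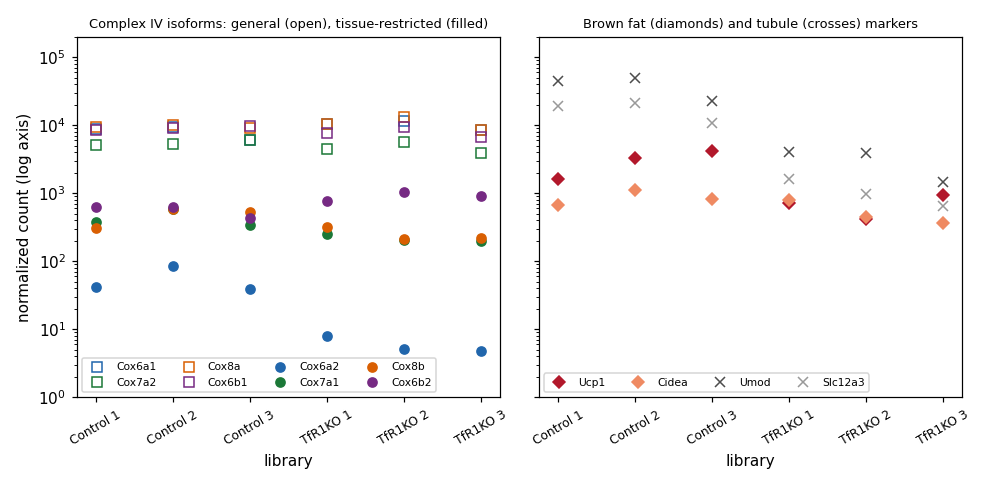
Left, normalized counts (log axis) of the complex IV isoforms in each of the 6 libraries, general isoforms as open squares and tissue-restricted ones as filled circles; right, the brown fat markers Ucp1 and Cidea (diamonds) and the markers Umod of the thick ascending limb and Slc12a3 of the distal convoluted tubule (crosses). Not shown are the brown fat marker Elovl3, higher in every TfR1KO;Six2Cre library than in every Control library, and the proximal tubule markers, of which 4 were called lower and 1 higher. Cox6a2, Cox7a1 and Ucp1 sit lower in every TfR1KO;Six2Cre library than in every Control library, Cox8b and Cidea overlap, Cox6b2 sits higher, and the general isoforms form a band between 3969 and 13349.

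The remaining complex IV genes, whose products surround the catalytic core, had log2 fold changes from -0.24 to 0.35. Cox4i1, a regulatory subunit, had a log2 fold change of -0.23, Cox6c -0.24, Cox7b -0.22, Cox7c -0.21 and Cox5b, which binds zinc, -0.19. Cox5a lay at 0.35 and Cox7a2l, a factor of respiratory supercomplexes, at 0.23. None was called (adjusted p 0.403 for Cox5a and higher in the others, DESeq2), the groups overlapped in all 7, and Cox7a2l turned to -0.03 without TfR1KO 2. Without its 4 called isoforms complex IV therefore had 7 members below 0 and 4 above, with a median of -0.21 on the log2 scale. Some of these genes share sequence with other loci, the share of 100-base transcript windows found elsewhere in mm9 being 37.5% for Cox5b, 36.3% for Cox7a2l and 22% for Cox7c, so their counts of uniquely placed reads are less certain.

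**Figure D3:**
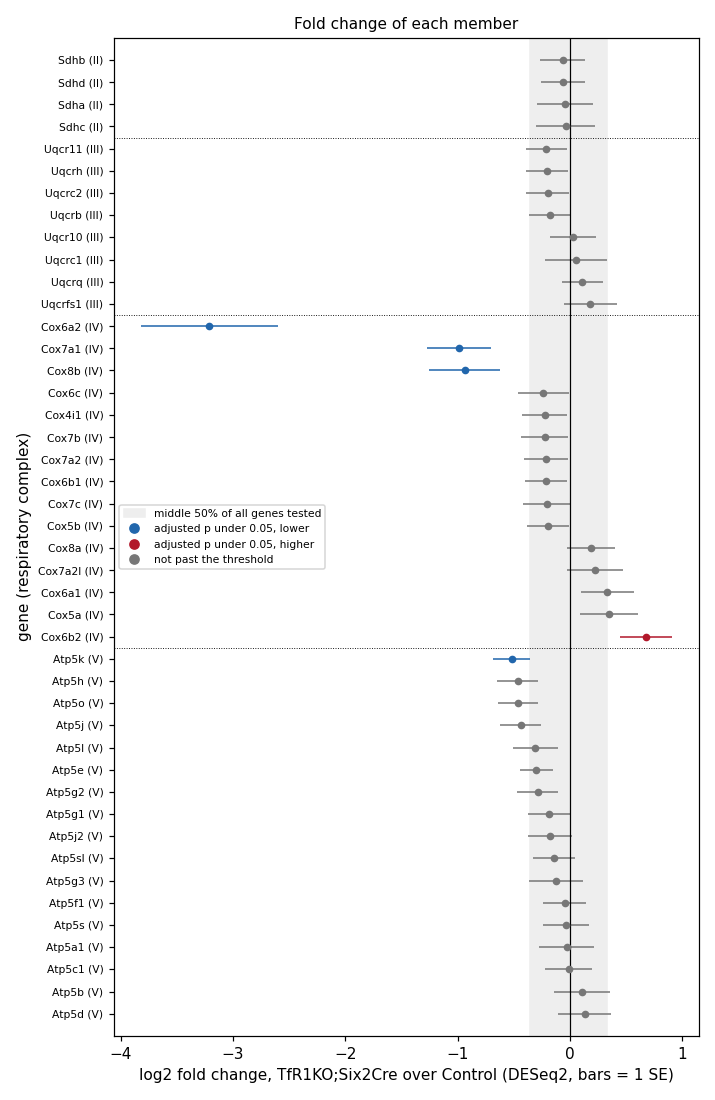
Points give the DESeq2 log2 fold change of TfR1KO;Six2Cre over Control for the 44 members tested, by complex, with bars of 1 standard error; the grey band is the middle 50% of all genes tested, -0.36 to 0.33. Cox6a2, Cox7a1, Cox8b, Atp5k (blue) and Cox6b2 (red) passed the threshold, complex II lies close to 0, and 15 of 17 ATP synthase genes lie left of 0.

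ATP synthase genes lay below 0 in 15 of 17 cases, with a median log2 fold change of -0.18, and 1 gene was called (5.88%, below the 7.18% of all genes called lower). At an unadjusted p under 0.05 by DESeq2 there were 5, all lower, where 13.5% of all genes were. The mean log2(normalized count + 1) of the 17 genes overlapped between the groups. It was 12.72, 12.82 and 12.60 in Control and 12.49, 12.73 and 12.34 in TfR1KO;Six2Cre kidneys. Atp5k (subunit e; mm9, chr5:108862263-108863467, - strand), a membrane subunit involved in pairing the enzyme into dimers, measured 4267, 4601 and 4661 normalized counts in Control and 3209, 3538 and 2709 in TfR1KO;Six2Cre kidneys. All 3 TfR1KO;Six2Cre libraries lay below the lowest Control, with means of 4510 ± 212 and 3152 ± 417 (SD, n = 3 each). The log2 fold change was -0.52 (SE 0.17, DESeq2 adjusted p = 0.0175, edgeR adjusted p = 0.0723). The adjusted p was 0.11 without Control 1, 0.158 without Control 2, 0.0576 without Control 3 and 0.15 without TfR1KO 3.

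In the catalytic head of ATP synthase the values lay nearer 0. Atp5a1 (subunit alpha) measured 47179, 52004 and 30341 normalized counts in Control and 40908, 47311 and 38597 in TfR1KO;Six2Cre kidneys (log2 fold change -0.03, SE 0.24, DESeq2 adjusted p = 0.955, 95% interval -0.51 to 0.45). Atp5b (subunit beta, which carries the catalytic sites) measured 56681, 62964 and 35558 against 53352, 62491 and 51480 (log2 fold change 0.11, SE 0.25, adjusted p = 0.826, 95% interval -0.38 to 0.60). In both genes Control 3 was the lowest library by a wide margin, and without it the log2 fold changes were -0.23 and -0.10. The central stalk genes Atp5c1 and Atp5d stood at -0.01 and 0.13, and Atp5e, the smallest subunit of the stalk, at -0.30 with all TfR1KO;Six2Cre libraries below all Control libraries (adjusted p = 0.154).

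None of the 4 peripheral stalk genes was called, but in 3 of them every TfR1KO;Six2Cre library lay below every Control library (16.9% of all genes tested). These 3 were singled out after their values were seen. Atp5h (subunit d) measured 7205, 7976 and 7946 normalized counts in Control and 5356, 6584 and 4800 in TfR1KO;Six2Cre kidneys (log2 fold change -0.47, SE 0.18, DESeq2 adjusted p = 0.0587). Atp5o (the oligomycin sensitivity protein, which joins the stalk to the head) measured 9190, 9868 and 10490 against 6842, 8410 and 6225 (log2 fold change -0.46, SE 0.18, adjusted p = 0.0596). Atp5j (coupling factor 6) measured 6455, 6401 and 6011 against 4231, 5617 and 4075 (log2 fold change -0.44, SE 0.19, adjusted p = 0.0915). The groups did not overlap in any of the 3, and TfR1KO 2 was the highest of the TfR1KO;Six2Cre libraries in each. The edgeR adjusted p values were 0.123, 0.134 and 0.137.

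Whether these stalk genes passed the threshold depended on a single library, on the scaling and, for Atp5h, on the filter for low counts. With only genes of at least 10 counts in at least 3 libraries, the DESeq2 adjusted p of Atp5h was 0.0498. Without TfR1KO 2 the DESeq2 adjusted p was 0.00203 for Atp5h, 0.00258 for Atp5o and 5.66e-04 for Atp5j, and the count of ATP synthase genes called lower rose from 1 to 6. Total-count scaling also gave 6, while it moved the median of all genes tested to -0.10, and scaling by the trimmed mean of M values (TMM) gave 3, with Atp5h and Atp5o added to Atp5k. The fourth stalk gene, Atp5f1 (subunit b), had a log2 fold change of -0.05 with overlapping groups. For Atp5h 29.5% and for Atp5j 10.8% of transcript windows recur elsewhere in mm9, and exons of Atp5o overlap Donson on the same strand by 287 of 2259 bases.

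In the membrane part, to which Atp5k belongs, the other 5 genes were not called. Subunit c of the rotor ring is encoded by a trio of genes that give the same mature protein. Atp5g1 measured 6446, 7014 and 5456 normalized counts in Control and 6132, 5794 and 4701 in TfR1KO;Six2Cre kidneys (log2 fold change -0.19, DESeq2 adjusted p = 0.56), Atp5g2 4971, 5346 and 5006 against 3852, 5019 and 3682 (-0.29, adjusted p = 0.305), and Atp5g3 18895, 20104 and 12221 against 15007, 17841 and 14246 (-0.12, adjusted p = 0.792). The groups overlapped in all of the trio, and Atp5g3 had the most reads in every library. Atp5g2 cannot be told from near copies, since 100% of its transcript windows occur elsewhere in mm9, and for Atp5l (subunit g, -0.31, adjusted p = 0.314) the share was 83.5%. Atp5j2 (subunit f) stood at -0.18. Atp5s and Atp5sl, which share the symbol but are no subunits of the enzyme, stood at -0.03 and -0.14.

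Grouped by place in the enzyme, a grouping made after the values were seen, the 5 genes of the F1 head and central stalk had a median log2 fold change of -0.01, the 6 of the membrane part -0.24 and the 4 of the peripheral stalk -0.45. Within each library, the mean log2(normalized count + 1) of the stalk genes minus that of the F1 genes was -0.93, -0.96 and -0.55 in Control and -1.25, -1.07 and -1.19 in TfR1KO;Six2Cre kidneys. The groups did not overlap, but Control 3 lay far from the other Controls because its F1 mean was low (13.62 against 13.98 and 14.09), while its stalk mean was not (13.07 against 13.05 and 13.13). These differences are a description and were not tested.

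**Figure D4:**
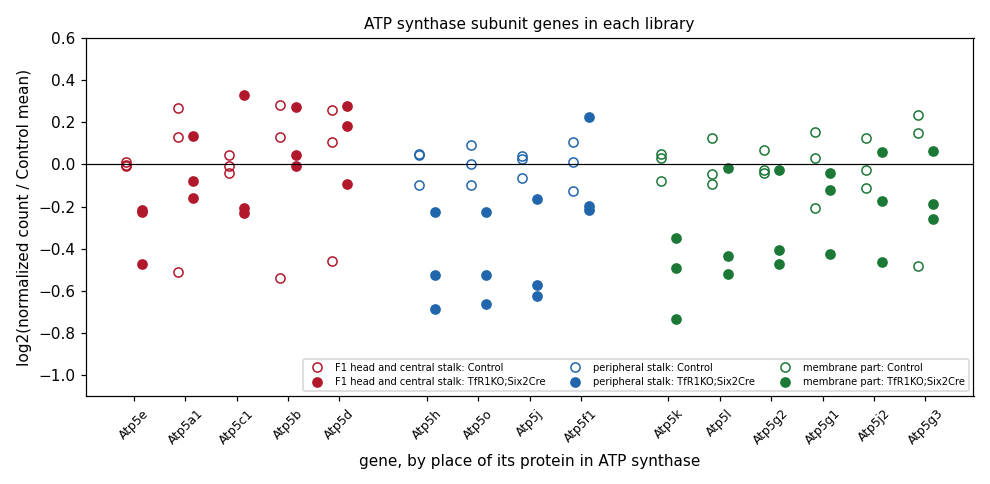
Each symbol is 1 library's log2 ratio of the normalized count to the Control mean for the 15 ATP synthase subunit genes, open for Control and filled for TfR1KO;Six2Cre, by place of the protein in the enzyme. In Atp5e, Atp5h, Atp5o, Atp5j and Atp5k the filled symbols all lie below the open ones, whereas Atp5a1, Atp5b and Atp5d overlap, with Control 3 as their lowest open symbol.

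Complexes II to IV and ATP synthase were then compared directly. The median log2 fold change was -0.18 over the 27 tested genes of complexes II to IV (18 below 0, 9 above) and -0.18 over the 17 of complex V (15 below, 2 above). Within each library, the mean log2(normalized count + 1) of complexes II to IV minus that of complex V was -0.73, -0.65 and -0.69 in Control and -0.70, -0.68 and -0.70 in TfR1KO;Six2Cre kidneys, with means of -0.69 in both groups. The ratio of their summed normalized counts was 0.796, 0.788 and 0.927 in Control and 0.839, 0.882 and 0.816 in TfR1KO;Six2Cre kidneys, and again the groups overlapped. On these scales no difference between the iron-containing complexes and ATP synthase was seen beyond the spread of the libraries. Summed counts of complex II were 0.964 times, of complex III 0.96 times, of complex IV 0.976 times and of complex V 0.947 times the Control mean.

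The comparison changed when the tissue-restricted isoforms, Atp5s and Atp5sl were left out. Cox7a2l, the factor of respiratory supercomplexes (log2 fold change 0.23), was kept. Among 23 genes of complexes II to IV without the tissue isoforms the median log2 fold change was -0.07, and among the 15 genes of complex V without Atp5s and Atp5sl it was -0.19. Within libraries the difference of the mean log2 levels was -0.50, -0.49 and -0.47 in Control and -0.36, -0.27 and -0.34 in TfR1KO;Six2Cre kidneys, so that the groups did not overlap and the means differed by 0.159 (-0.48 ± 0.02 and -0.32 ± 0.05, SD, n = 3 each). The mean level of complexes II to IV thus lay closer to that of ATP synthase in each TfR1KO;Six2Cre library. No p is given for this score over the members. The genes of complexes II to IV left out include all 4 that were called there, and the gene lists were chosen with earlier results known. The separation depends on which members enter. With all tested members both group means were -0.69 and the groups overlapped. For the same reason, calls among the remaining 23 are not compared with those of ATP synthase.

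**Figure D5:**
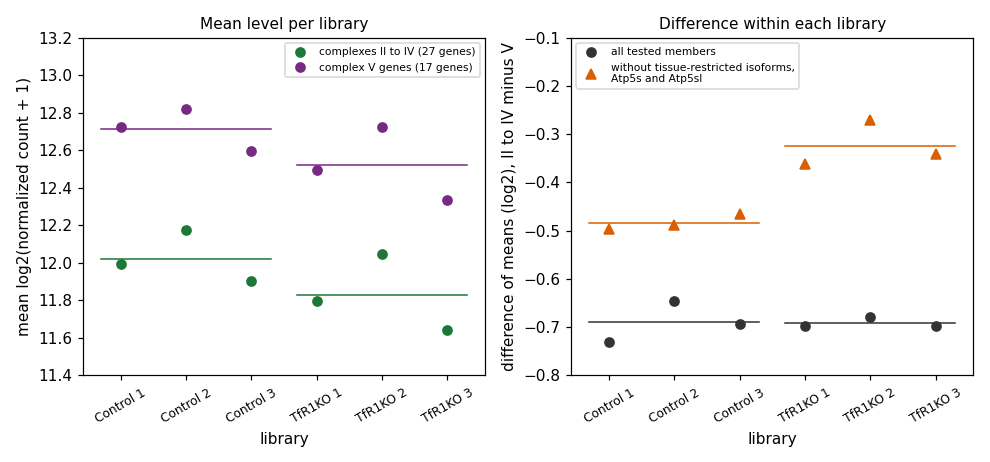
Left, the mean log2(normalized count + 1) of the 27 tested genes of complexes II to IV (green) and the 17 of complex V (purple) in each library, with group means as lines. Right, the difference within each library: for all tested members (black circles) both group means are -0.69, and without the tissue-restricted isoforms, Atp5s and Atp5sl (orange triangles) the Control libraries lie between -0.50 and -0.47 and the TfR1KO;Six2Cre libraries between -0.36 and -0.27.

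Few other genes of the pathway were called. Of 9 further subunits, carriers and inhibitors tested, 0 were called by DESeq2 or edgeR, with a median log2 fold change of -0.18. At an unadjusted p under 0.05, 3 were lower and 1 higher by either tool, where 13.5% and 13.8% of all genes were by DESeq2. Cyc1 (heme-bearing cytochrome c1 of complex III) stood at 0.15 (DESeq2 adjusted p = 0.727) and Cycs (cytochrome c) at 0.16 (adjusted p = 0.508). Atpif1, the inhibitor that stops ATP synthase from running backwards, measured 5768, 5966 and 6328 normalized counts in Control and 4611, 5334 and 3809 in TfR1KO;Six2Cre kidneys, all below the Controls but not past the threshold (log2 fold change -0.39, adjusted p = 0.131, unadjusted p = 0.03). Cox4i2, the isoform of Cox4i1 induced at low oxygen, stood at -0.97 (adjusted p = 0.127, unadjusted p = 0.0282, edgeR unadjusted p = 0.0468).

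Of 30 assembly factors tested, 2 were lower by DESeq2 (7.18% of all genes) and 0 by edgeR (2.8% of all genes), with a median log2 fold change of -0.03. At an unadjusted p under 0.05, 3 were lower and 2 higher by DESeq2 (13.5% and 13.8% of all genes). By edgeR 3 were lower and 1 higher at that level (13% and 12.8% of all genes). Cox19, a copper-handling factor of complex IV assembly, measured 683, 770 and 806 normalized counts in Control and 522, 526 and 540 in TfR1KO;Six2Cre kidneys (log2 fold change -0.51, SE 0.16, DESeq2 adjusted p = 0.0136, edgeR adjusted p = 0.0629). Pet100, needed for complex IV biogenesis, measured 449, 435 and 577 against 357, 246 and 267 (log2 fold change -0.75, SE 0.24, adjusted p = 0.018, edgeR adjusted p = 0.0813). The groups did not overlap in either gene.

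Of 13 regulators of mitochondrial genes, 1 was lower by DESeq2 (7.18% of all genes) and 0 by edgeR (2.8% of all genes). At an unadjusted p under 0.05, 1 was lower and 1 higher by either tool (13.5% and 13.8% of all genes by DESeq2). Esrrb, an estrogen-related receptor, measured 1082, 1260 and 509 normalized counts in Control and 191, 438 and 176 in TfR1KO;Six2Cre kidneys (log2 fold change -1.83, SE 0.44, DESeq2 adjusted p = 7.76e-04, edgeR adjusted p = 0.0552), without overlap. Ppargc1a, the coactivator that drives mitochondrial biogenesis, stood at -0.12 (adjusted p = 0.775), and Lonp1, a protease of the mitochondrial matrix, at 0.61 (adjusted p = 0.0706) with all TfR1KO;Six2Cre libraries above all Control libraries. The median over the 13 genes was -0.05.

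RNAs that mark kidney cell types also differed between the genotypes, and their part in the values above was not tested. For scale, 7.18% of all genes tested were called lower and 7.74% higher by DESeq2. All 5 markers of the thick ascending limb and all 4 of the distal convoluted tubule were called lower by DESeq2, their summed normalized counts being 48860 to 96930 and 22967 to 39149 in Control against 13803 to 25950 and 6111 to 9883 in TfR1KO;Six2Cre kidneys. Of 10 proximal tubule markers 4 were lower and 1 higher, and their sum was 85458 to 170760 in Control, with Control 3 the lowest, and 68420 to 111510 in TfR1KO;Six2Cre kidneys. Of 7 collecting duct markers 1 was lower and 2 higher (sum 8631 to 15374 against 28432 to 61585, and without the water channel Aqp2 6222 to 9793 against 10627 to 11066), of 5 macrophage markers 2 were higher, of 5 podocyte markers 1 was higher, of 5 stromal markers 1 was lower, of 5 endothelial markers 0 were called (0 also at an unadjusted p under 0.05 by DESeq2 and edgeR), and of 3 erythroid markers tested 1 was lower, the anion exchanger Slc4a1, which is also the collecting duct marker that was lower.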

How the data were processed

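The deposited data are raw counts of reads per gene, which the authors made from poly-A RNA libraries of 6 kidneys. The submitters' processing notes name CASAVA 1.8.2, Trimmomatic, TopHat2 2.0.11, HTSeq and the mm9 build. Whether counting used strand is not given in the sources used here, so reads from overlapping antisense genes cannot be told apart. The members and gene lists were chosen with earlier results of these data known.

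All 24422 genes were fitted in R 4.3.3 with DESeq2 1.42.0 (Wald test, median-ratio size factors, no covariate), the tool of the study, and p-values were adjusted by Benjamini-Hochberg over the 16509 genes that passed independent filtering (mean of at least 3.51 normalized counts). A call is an adjusted p under 0.05, and fold changes are unshrunken. The quasi-likelihood test of edgeR 4.0.16 stands beside it. Intervals of 95% are the log2 fold change with its normal error. Levels per gene length use mm9 exon unions of GENCODE, and promoters are RefSeq's. The fits were tested on simulated data. No 2 libraries of a group agreed within counting noise.

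Every member could be named. Values per library are given for the called members, the iron-holding and catalytic subunits and the isoform pairs, and for the listed pathway genes that were called or preset. Alternatives covered the test, 2 other scalings, 2 filters on low counts, the replicate block, each library left out and the members that enter. Same-numbered libraries deviated together with correlations of 0.0148, 0.0663 and 0.155. Since only 1 of these is above 0.1, the kidneys were treated as unpaired. The study describes its controls as littermates, but the sample labels used here give no litter. The correlations cannot show whether kidneys came from the same litter.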

Additional observations from a re-analysis of the deposited data

How the results depend on the processing

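The medians of complexes II to IV and of ATP synthase stayed below 0 under every alternative run but varied in size, and the number of calls was small and moved. The median of complexes II to IV ran from -0.31 without TfR1KO 2 to -0.057 without TfR1KO 3. For ATP synthase it ran from -0.29 with total-count size factors to -0.077 without TfR1KO 3. Total-count size factors also moved the median of all genes tested to -0.097. With edgeR's quasi-likelihood test 1 member was called lower and 0 higher, the lower one in complexes II to IV, with 0 in ATP synthase and 0 higher in complexes II to IV. With TMM size factors 2 members were called lower at 2-fold and 3 ATP synthase genes were called lower. With total-count size factors 9 members were called lower, 3 of them at 2-fold, and 6 of ATP synthase, and Uqcr10, Uqcrc1 and Uqcrq turned to -0.098, -0.033 and -0.0072 on the log2 scale. With only genes of at least 10 counts in at least 3 libraries 2 ATP synthase genes, Atp5k and Atp5h, were called lower. With the replicate number as a block 3 members and 0 ATP synthase genes were called lower, the call of Atp5k was lost (adjusted p = 0.0707), Atp5a1 and Sdhc moved to 0.0013 and 0.0025, and no other member's call changed. The median of complexes II to IV minus that of ATP synthase was -0.0042 with all members, 0.054 with members of at least 100 mean counts and 0.12 without tissue-restricted isoforms, Atp5s and Atp5sl.

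When each library was left out in turn, 1 to 9 members were called lower (1 without Control 2 or without TfR1KO 3, 9 without TfR1KO 2), 0 to 1 higher, and 1 to 3 lower at 2-fold (3 without Control 1 or TfR1KO 1). For complexes II to IV, 1 to 3 were called lower and 0 to 1 higher, and for ATP synthase 0 to 6 lower. The difference of the medians ran from -0.087 without TfR1KO 2 to 0.10 without Control 3. The log2 fold changes of 15 members near 0 changed sign, none of them called in any of these fits, with these ranges: Atp5a1 -0.23 to 0.12, Atp5b -0.10 to 0.27, Atp5c1 -0.22 to 0.089, Atp5d -0.056 to 0.27, Atp5f1 -0.20 to 0.032, Atp5g3 -0.32 to 0.0069, Atp5s -0.13 to 0.088, Cox7a2l -0.032 to 0.40, Sdha -0.26 to 0.11, Sdhb -0.25 to 0.048, Sdhc -0.26 to 0.11, Sdhd -0.23 to 0.019, Uqcr10 -0.14 to 0.13, Uqcrc1 -0.20 to 0.23 and Uqcrq -0.012 to 0.24. Over the members and all alternatives, 461 values kept direction and side of the threshold, 20 lost a call, 14 gained one and 33 changed sign, 28 of the latter with a library left out. Sign is therefore not settled for these members at 3 kidneys a group, and the cause was not tested. Cox6a2 rests on 4 to 8 reads in each TfR1KO;Six2Cre library.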
